A study of Mus musculus with 4 samples.

Results

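A set of 9 regulators of the endocardium, the endothelial lining of the heart, was followed on 4 microarrays. Klf2, Klf4, Nos3, Nfatc1, Sox7, Sox17, Sox18, Hhex and Tal1 were taken as every non-control probe that carries one of these names. That gave 16 probes for the 9 genes, of 27962 gene names and 41174 probes in the files. A probe entered the test if 3 or more arrays had it well above background in either channel, as was so for 14 of the 16.

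The tissue was the atrioventricular canal (AVC) of embryonic mouse hearts at e10.5. The endocardial cushions form in this segment between atria and ventricles. Tissue of 5 hearts made up each pool, and each of the 4 arrays compared 1 Tbx3 mutant pool, labelled with Cy5, with 1 wild type control pool, labelled with Cy3. The labels describe the mutants as Tbx3 hypomorphic and do not give the structure of the allele. Mutants and controls had the same background, 50% Sv129 and 50% C57Bl6. Every array had the same dye orientation, so a dye effect particular to a probe cannot be told apart from genotype. The labels call the 4 arrays biological replicates.

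Blood flow over the endocardium is sensed by the lining cells, which answer by inducing the zinc finger factors Klf2 and Klf4 through a kinase cascade that ends on Mef2 factors. Klf2 and Klf4 in turn raise Nos3, the endothelial nitric oxide synthase, and repress the vasoconstrictor gene Edn1. Nfatc1 is a calcineurin-dependent factor of the endocardium that is needed for heart valve growth. Sox7, Sox17 and Sox18 are the SoxF factors of endothelial cells, Hhex is a homeobox factor of early endothelium and endoderm, and Tal1 is a basic helix-loop-helix factor of blood and endothelium.

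Each probe was a 60-base oligonucleotide. The probes of a gene are numbered here along its strand, except Sox17 probe 4, which lies on the opposite strand. The pair of Klf2 probes is shown because they disagreed on array 2. Runs of at least 5 consecutive G or C bases are in capitals, with bases as the array files give them, on build mm7.
Klf2 probe 1, whole, chr8:70842757-70842816, plus strand: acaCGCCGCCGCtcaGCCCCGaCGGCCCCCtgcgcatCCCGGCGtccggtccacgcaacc
Klf2 probe 2, its first 30 bases, chr8:70844133-70844192, plus strand: tgtatataagactatgaccgattgtatttc
Klf2 probe 1 is 78.3% G and C and holds 4 such runs, with 30 capital bases in all. Only 0.0486% of the probes tested were as rich in G and C. Klf2 probe 2, which starts 1376 bases further along the gene, is 43.3% G and C, and 48.2% of the probes tested were at least that rich. The 3 member probes next richest in G and C, from genes whose results follow below, show how far Klf2 probe 1 stands from them.
Nos3, chr5:23424311-23424370, plus strand: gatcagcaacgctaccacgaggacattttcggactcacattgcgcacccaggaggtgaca
Sox17 probe 2, chr1:4487401-4487460, minus strand: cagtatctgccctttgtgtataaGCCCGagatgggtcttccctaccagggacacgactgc
Hhex probe 1, chr19:37137914-37137973, plus strand: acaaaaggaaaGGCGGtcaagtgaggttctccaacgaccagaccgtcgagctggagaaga
Nos3 and Sox17 probe 2 are 55% G and C and Hhex probe 1 is 53.3%. The other tested member probes lie between 35% and 45%. No annotation of build mm7 was used here, so the exon or untranslated region of a probe is not stated.

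Median spot signals were 175.1 to 232.5 in the mutant channel and 117.9 to 133.5 in the control channel, and 67% to 72.4% of spots were well above background. Array 2 stood apart from the other 3. Its log2 ratios over all tested probes had an SD of 0.45, against 0.26 to 0.28 on the others. They correlated with those of arrays 1, 3 and 4 across probes at 0.07, -0.06 and -0.04, while the other 3 arrays correlated with each other at 0.24 to 0.65. Members are therefore given for every array, and means of genes and medians of lists are given without array 2 as well where the sign or the size moves by much. The targeted gene was lower in the mutant on all 4 arrays: the bright Tbx3 probe had log2 ratios of -1.35, -1.40, -1.43 and -1.21, with a limma adjusted p of 0.0505 over all probes (0.0287 without array 2). A dim Tbx3 probe gave -0.14 ± 0.12 (SD, n = 4). The 20 endothelial markers were all measured, that is, past the filter, and their log2 summed level was 17.05 to 17.32 in mutant pools and 17.18 to 17.41 in control pools. The labelled tissue was also seen in 10 of 10 myocardial markers that were measured, whose log2 summed level was 20.15 to 20.35 in mutant pools and 19.43 to 19.75 in control pools.

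None of the 14 member probes passed an adjusted p of 0.05 in limma's moderated test of the log2 ratio, mutant over control, against 0, adjusted over all 28806 tested probes. That threshold called 0% of all tested probes. At an unadjusted p under 0.05 there were 3 of 14 member probes, where all tested probes gave 13.7%. Of these 3, 2 were higher and 1 was lower in the mutant, where all tested probes gave 7.55% higher and 6.15% lower. The ratio had the same sign on all 4 arrays for 5 of 14 member probes, 4 above and 1 below 0, against 23.7% of all tested probes (13% above and 10.7% below). The mean ratio was above 0 for 11 and below 0 for 3 of the 14. By the brightest probe of each gene, 9606 of all 19097 measured genes had a mean above 0. The 14 probes come from 9 genes, and probes of the same gene are counted apart. Pool levels of mutant and control did not overlap for 3 of 14, which were Klf2 probe 2 (lower in the mutant), Sox18 and Hhex probe 1 (both higher), against 7.77% of all tested probes (3.77% higher and 4% lower). Without array 2, 1 of 14 member probes passed the threshold, Klf2 probe 2, where the background was 0.719%.

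**Figure D1:**
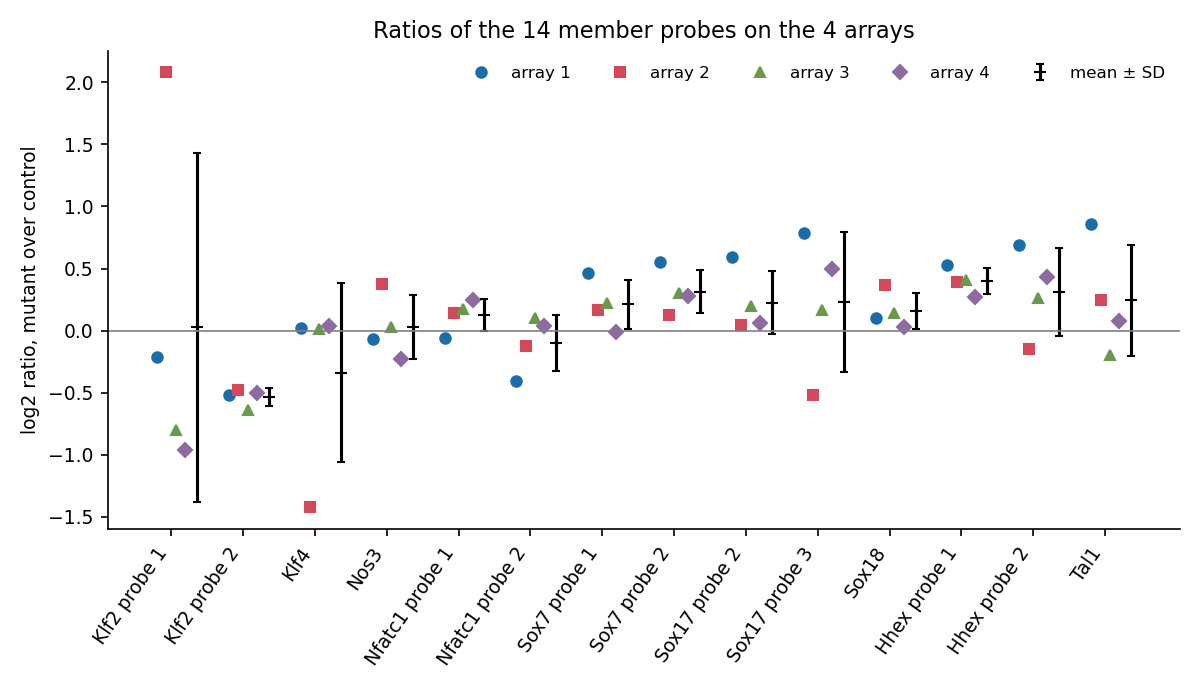
Log2 ratio of mutant over control (vertical axis) for each of the 14 tested member probes (horizontal axis), 1 point per array, with the mean and SD of the 4 arrays as black bars. Klf2 probe 2 lies below 0 on every array, between -0.64 and -0.48, whereas Klf2 probe 1 and Klf4 each have array 2 far from the other 3 arrays.

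Klf2, a flow-induced factor, was lower in the mutant on every array by its probe 2. Its normalized log2 levels on that probe were 13.41, 13.78, 13.45 and 13.68 in mutant pools 1 to 4, against 13.93, 14.26, 14.09 and 14.18 in control pools. Every mutant pool lay below every control pool. The log2 ratios were -0.52, -0.48, -0.64 and -0.50, a mean of -0.54 ± 0.07 (SD, n = 4) with a limma 95% interval of -0.69 to -0.38. The adjusted limma p was 0.133, so the call was missed with 4 arrays and made with arrays 1, 3 and 4 alone, at -0.55 and an adjusted limma p of 0.0483. With median centring in place of loess the mean was -0.04, which is -0.25 relative to the median of all tested probes. In bulk tissue, fewer cells of a type and less RNA per cell cannot be told apart.

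Klf2 probe 1 gave another picture. Its levels were 15.46, 16.94, 14.94 and 14.68 in mutant pools, against 15.67, 14.86, 15.74 and 15.64 in control pools. On arrays 1, 3 and 4 the mutant pool was below its control, and on array 2 mutant pool 2 was the highest and control pool 2 the lowest of the control pools. The log2 ratios were -0.21, 2.08, -0.80 and -0.96, which average 0.03 ± 1.41 (SD, n = 4), with an adjusted limma p of 0.988 and a 95% interval of -1.24 to 1.29. Without array 2 the mean was -0.66 ± 0.40 (SD, n = 3, adjusted limma p 0.0977), below 0 as on probe 2. The 3 other probes of like base composition and brightness had median log2 ratios of -0.24, -0.89 and -0.996 on arrays 1, 3 and 4. The departure of array 2 on Klf2 probe 1 was present in the scanner signal before any normalization: the mutant channel read 72690, 197117, 44697 and 36939 on arrays 1 to 4, against 37515, 18124, 36094 and 34813 in the control channel.

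The spot behind that reading was neither saturated nor marked as non-uniform on any array. Its pixels on array 2 varied by 8.65% in the mutant channel and 5.41% in the control channel. The 35 tested spots around it had a median log2 ratio of 0.01 on array 2. A difference between array 2 and the mean of the other 3 arrays as large as on Klf2 probe 1 was present in 0.455% of all tested probes. Over the 4 arrays, the ratio of probe 1 exceeded that of probe 2 by 0.31, 2.56, -0.16 and -0.46, an average of 0.56 ± 1.37 (SD, n = 4). This disagreement was known when the genes were chosen, so no test is given for it.

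**Figure D2:**
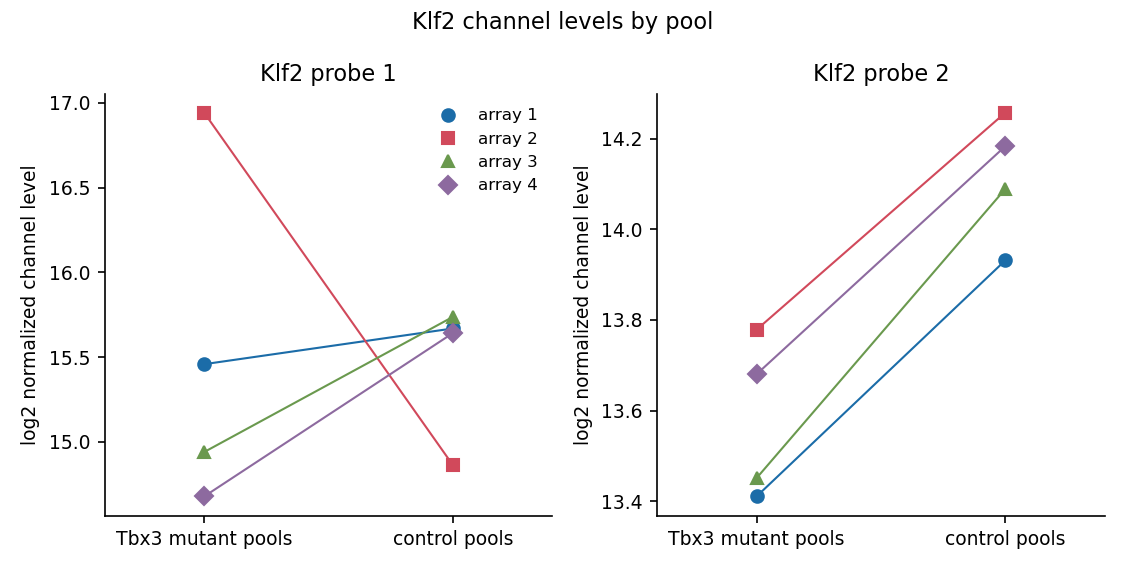
Normalized log2 channel level (vertical axes, which differ in range) of the Klf2 probes in Tbx3 mutant pools and control pools, with lines joining the pools of 1 array. On probe 2 the mutant pools, at 13.41 to 13.78, all lie below the control pools, at 13.93 to 14.26, and on probe 1 the mutant pool of array 2 lies above its control.

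Probes of like base composition were set beside Klf2 probe 1. The other 13 tested probes at least as rich in G and C as Klf2 probe 1 had median log2 ratios of 0.09, 1.09, -0.36 and -0.03 on arrays 1 to 4, and 12 of the 13 were above 0 on array 2. The 3 of them that were also within 1 log2 unit of its brightness had medians of -0.24, 1.86, -0.89 and -0.996, with a range on array 2 of 1.55 to 2.23. Of all base compositions, 1064 probes lay within 1 log2 unit of its brightness, with a median of 0.00 on array 2, and 2 of them were at least as high there as Klf2 probe 1.

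The same was seen over the brighter part of the array, where probes had a mean log2 intensity (A) of at least 12. On array 2 the median log2 ratio was -0.24 for 72 probes with under 30% G and C and 0.94 for 33 probes with 65% or more. On arrays 3 and 4 the probes of 65% or more had medians of -0.33 and -0.30, and on array 1 of 0.14. In the range of 40% to 45%, which holds Klf2 probe 2, the medians of 1351 probes were within 0.02 of 0 on all 4 arrays. The part of base composition and of brightness in the reading of Klf2 probe 1 was not tested.

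**Figure D3:**
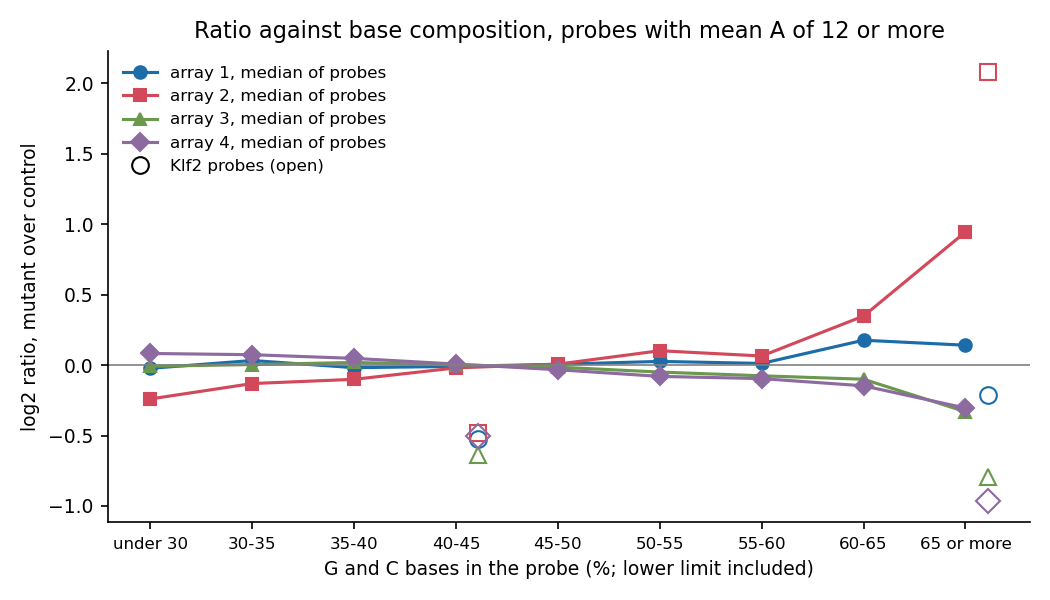
Median log2 ratio of mutant over control (vertical axis) by percent of G and C bases in the probe (horizontal axis) for tested probes with a mean A of at least 12, 1 line per array, with the Klf2 probes as open symbols in the colour and shape of their array. Array 2 reaches a median of 0.94 at 65% or more while arrays 3 and 4 reach -0.33 and -0.30, and Klf2 probe 2 lies in a range where all 4 lines are near 0.

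By Euclidean distance over the 4 log2 ratios, the 3 named genes nearest to Klf2 probe 1 were LOC666606 (distance 0.16), Cox17 (0.22), which encodes a copper chaperone for cytochrome c oxidase, and Lars2 (0.27), the mitochondrial leucyl-tRNA synthetase. The Cox17 probe had the same G and C content as Klf2 probe 1, 78.3%, the LOC666606 probe 66.7% and the Lars2 probe 45%. The nearest to Klf2 probe 2 were Camkk2 (0.13), a calcium/calmodulin-dependent kinase kinase, Acyp2 (0.17), an acylphosphatase, and Stard9 (0.18), a kinesin. Their probes were 35%, 28.3% and 50% G and C.

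Klf4, the close relative of Klf2 that is also induced by flow, had log2 levels of 12.98, 12.71, 13.29 and 13.30 in mutant pools, against 12.96, 14.14, 13.28 and 13.27 in control pools. Mutant and control were nearly equal on arrays 1, 3 and 4, and on array 2 the control pool was the highest of all 8 pools. Its log2 ratios were 0.02, -1.42, 0.01 and 0.03, a mean of -0.34 ± 0.72 (SD, n = 4, adjusted limma p 0.628). Without array 2 the mean was 0.02 ± 0.01 (SD, n = 3, adjusted limma p 0.862). It was the 1 member probe of 14 with an array set apart by Dixon's ratio, which did so for 8.44% of all tested probes and, with array 2 as the array apart, for 5.85%.

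Markers of leukocytes, and most of those of uterus and decidua, were high in the same control pool. All 10 leukocyte markers were highest in control pool 2 among the control pools, and their log2 summed level was 13.13 to 13.56 in mutant pools and 13.36, 15.51, 13.74 and 13.67 in control pools 1 to 4. Of 12 markers of uterus and decidua 7 were measured, and 6 of the 7 were highest in control pool 2, with a log2 summed level of 13.73 to 14.08 in mutant pools and 13.90, 14.62, 13.88 and 13.85 in control pools. All 10 leukocyte markers passed the filter. None of the 12 uterine and decidual markers, past the filter or not, was at background in every channel. Log2 ratios of the leukocyte markers on array 2 ran from -3.68 to -0.54, all below 0, and those of the uterine markers from -4.48 to 0.36, with 6 of 7 below 0. Cushion mesenchyme markers had a log2 summed level of 17.30 to 17.46 in mutant pools and 17.58, 19.50, 17.69 and 17.58 in control pools. The value of 19.50 went with a few collagens, of which Col1a1 had -3.58 and Col3a1 -2.37 on array 2. The median level of the 14 cushion markers was 13.22 to 13.54 in mutant pools and 13.58, 13.60, 13.69 and 13.75 in control pools, and 5 of the 14 were above 0 on array 2. Control pool 2 was also the highest control pool in 9 of 20 endothelial markers, and 14 of the 20 were below 0 on array 2. The part of these cells in the Klf4 value was not tested.

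**Figure D4:**
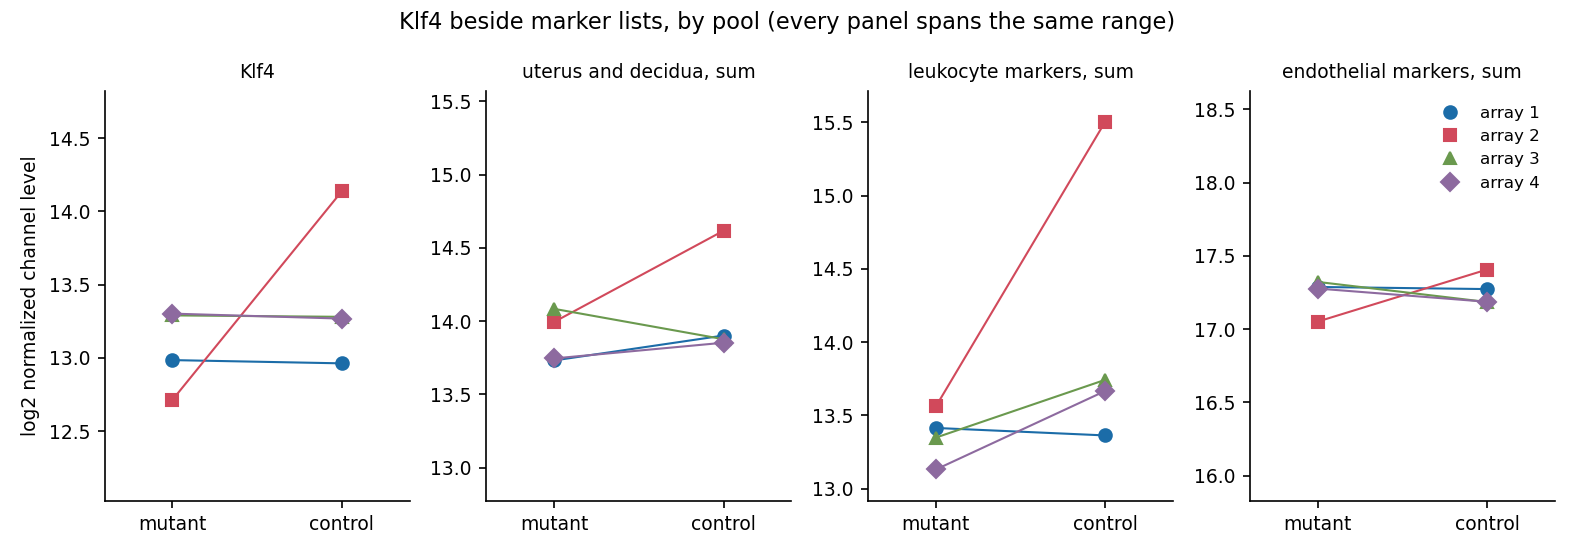
Normalized log2 channel level of Klf4 and the log2 summed levels of 3 marker lists (vertical axes, all spanning the same range) in mutant and control pools, with lines joining the pools of 1 array. Control pool 2 stands highest in the Klf4, uterus and decidua, and leukocyte panels, at 14.14, 14.62 and 15.51. It is also the highest pool of the endothelial sums, at 17.41, where mutant pool 2 is the lowest, at 17.05. Cryab, with a mean A of 13.70, is the brightest gene in the uterus and decidua sum.

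The other 13 measured genes of the KLF family had a median log2 ratio of -0.01, and 0 of 13 passed the threshold. The lowest mean was that of Klf5, an epithelial and smooth muscle factor, at -0.40 ± 1.07 (SD, n = 4), again with array 2 far from the rest, at -1.98, and a mean of 0.13 without it. The highest was Klf15, at 0.33 ± 0.52 and at 0.58 without array 2. Without array 2 the median of the family was 0.04. The pair with the highest mean A were Klf1, the erythroid factor, at -0.22 ± 0.30 and Klf6 at 0.19 ± 0.15. None of these 4 had an adjusted limma p below 0.372.

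Upstream of Klf2, the list of flow sensors and the Mef2 cascade had 16 of 18 genes measured and a median log2 ratio of -0.04, against 0.00 over all 19097 measured genes. None of the 16 passed the threshold. Mef2c, a factor that binds the Klf2 promoter in endothelial cells, was the highest, with log2 ratios of 0.29, 0.38, 0.39 and 0.53, a mean of 0.40 ± 0.10 (adjusted limma p 0.161). Trpv4, a calcium channel opened by flow, was the lowest, at -0.55, -1.55, -0.55 and -0.58, a mean of -0.81 ± 0.49 (adjusted limma p 0.208). Both had the same sign on all 4 arrays. Without array 2 Trpv4 averaged -0.56 and passed the threshold (adjusted limma p 0.045). Of all 19097 measured genes, 115 passed it higher and 46 lower without array 2. The brightest probes of the list, Mef2d and the class II deacetylase Hdac5, averaged -0.15 ± 0.07 and -0.08 ± 0.17, and without array 2 Hdac5 averaged -0.15 and the list had a median of -0.01.

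Downstream, the list of genes dependent on Klf2 and Klf4 or regulated by flow had 19 of 20 genes measured, a median log2 ratio of -0.06 and 0 of 19 past the threshold. Edn1, the endothelin gene that Klf2 represses, was the highest, with log2 ratios of 0.95, 0.12, 0.63 and 1.02, a mean of 0.68 ± 0.41 (adjusted limma p 0.21). Plpp3, a lipid phosphatase gene that flow induces, was the lowest, at -0.48, -1.49, -0.70 and -0.63, a mean of -0.82 ± 0.45 (adjusted limma p 0.183). Without array 2 Edn1 averaged 0.87 and Plpp3 -0.60. These were the only members of the list past the threshold without array 2, at adjusted limma p-values of 0.0463 for Edn1 and 0.0493 for Plpp3. Of all 19097 measured genes, 115 passed it higher and 46 lower without array 2. The ratio was below 0 on all 4 arrays for 5 of the 19 and above 0 on all 4 for 1, where these counts over all 19097 measured genes were 2405 and 2352. The 5 were Plpp3, the caveolin Cav1 (-0.36 ± 0.26), the versican-cleaving protease Adamts5 (-0.36 ± 0.14), the connexin Gja4 (-0.25 ± 0.05) and the arginine synthesis enzyme Ass1 (-0.29 ± 0.11). Adamts5, Gja4 and Ass1 were named after their values were seen. Ece1, which makes active endothelin, had the highest A of the list and averaged 0.14 ± 0.31, or 0.27 without array 2. The median of the list without array 2 was 0.00.

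Nos3 was measured by 10 spots of 1 probe. Its log2 levels were 10.86, 11.15, 11.08 and 10.85 in mutant pools, against 10.93, 10.78, 11.05 and 11.09 in control pools, and the groups overlapped. Log2 ratios of -0.07, 0.38, 0.03 and -0.23 gave a mean of 0.03 ± 0.26 (SD, n = 4, adjusted limma p 0.937), with a 95% interval of -0.24 to 0.30, and without array 2 the mean was -0.09. Within an array the 10 spots agreed far more closely than the arrays did: the SD over spots was 0.02 to 0.03 on every array, and on array 2 the spots ran from 0.35 to 0.42. Nitric oxide pathway genes had 12 of 15 measured, a median of 0.11 (0.17 without array 2) and 0 of 12 past the threshold. The chaperone Hsp90aa1, of the kind that binds the synthase, was the highest at 0.35 ± 0.16 (adjusted limma p 0.209). Ddah2, which degrades an endogenous inhibitor of the synthase, was the lowest at -0.07 ± 0.04 (adjusted limma p 0.669), and these 2 also had the highest A.

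Nfatc1, on chromosome 18, was measured by a pair of probes 41775 bases apart. Probe 1 had log2 levels of 10.16, 10.07, 10.24 and 10.38 in mutant pools, against 10.22, 9.92, 10.07 and 10.14 in control pools. Its log2 ratios of -0.06, 0.15, 0.17 and 0.24 averaged 0.13 ± 0.13 (SD, n = 4, adjusted limma p 0.517). Probe 2 had log2 levels of 10.67, 10.73, 10.95 and 10.90 in mutant pools, against 11.08, 10.85, 10.86 and 10.87 in control pools, with log2 ratios of -0.41, -0.12, 0.10 and 0.03 and a mean of -0.10 ± 0.22 (adjusted limma p 0.704). Mutant and control pools overlapped on both probes. The ratio of probe 1 was above that of probe 2 on each array, by 0.35, 0.27, 0.08 and 0.21 (mean 0.23 ± 0.11, exact 2-sided sign-flip permutation test, p = 0.125, the smallest possible with n = 4, and 0.625 after adjustment over the 5 pairs of member probes).

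Calcineurin and NFAT genes had 15 of 16 measured, a median log2 ratio of -0.03 and 0 of 15 past the threshold. Rcan1, a calcineurin inhibitor that is itself an NFAT target, was the highest and was above 0 on all 4 arrays, at 0.65, 0.32, 0.45 and 0.30 (mean 0.43 ± 0.16, adjusted limma p 0.165). Nfat5, the calcineurin-independent member of the family, was the lowest, at -0.32 ± 0.14 (adjusted limma p 0.21). The catalytic subunits Ppp3ca and Ppp3cb, which had the highest A, averaged -0.25 ± 0.07 and -0.03 ± 0.15, the second of them 0.00 without array 2, where the list median was -0.05.

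Mean ratios of the SoxF genes were above 0 on all 5 tested probes, none of which passed the threshold. Sox7 probe 1 was dim, with log2 levels of 8.34, 7.64, 8.05 and 7.56 in mutant pools, against 7.87, 7.47, 7.82 and 7.57 in control pools, and log2 ratios of 0.46, 0.17, 0.22 and -0.01 (mean 0.21 ± 0.20, adjusted limma p 0.394). Sox7 probe 2 had log2 levels of 12.24, 11.49, 11.70 and 11.76 in mutant pools, against 11.69, 11.36, 11.39 and 11.48 in control pools. Its log2 ratios were above 0 on all 4 arrays, at 0.55, 0.13, 0.30 and 0.28 (mean 0.31 ± 0.18, SD, n = 4, adjusted limma p 0.246), with a 95% interval of 0.10 to 0.53. On both Sox7 probes the ranges of the groups overlapped. The difference between them averaged -0.10 ± 0.14 (exact 2-sided sign-flip permutation test, p = 0.25).

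Sox17 had 4 probes, of which 2 were well above background in no channel of any array. Their log2 levels were at most 6.12 in mutant pools and at most 6.22 in control pools, and no fold is given. Of that pair, probe 4 lies on the opposite strand to the other 3, and its number does not give its order along the gene. Probe 2 had log2 levels of 9.62, 9.19, 9.12 and 9.29 in mutant pools, against 9.03, 9.15, 8.92 and 9.23 in control pools, and log2 ratios of 0.59, 0.04, 0.20 and 0.06 (mean 0.22 ± 0.25, adjusted limma p 0.437). Probe 3 had log2 levels of 10.58, 9.71, 9.97 and 10.26 in mutant pools, against 9.79, 10.23, 9.80 and 9.76 in control pools, and log2 ratios of 0.79, -0.52, 0.17 and 0.50 (mean 0.23 ± 0.56, adjusted limma p 0.674). The probes differed most on array 2, where control pool 2 was the highest control pool on probe 3. Their difference averaged -0.01 ± 0.43 (exact 2-sided sign-flip permutation test, p = 1). Without array 2 the mean of probe 3 was 0.48 (adjusted limma p 0.114). Without array 1 the means were 0.10 for probe 2 and 0.05 for probe 3.

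Sox18 had log2 levels of 10.96, 11.11, 10.91 and 10.90 in mutant pools, against 10.85, 10.75, 10.78 and 10.87 in control pools. Every mutant pool lay above every control pool, and the nearest were the pools of array 4. Log2 ratios of 0.10, 0.37, 0.14 and 0.03 gave a mean of 0.16 ± 0.15 (SD, n = 4, adjusted limma p 0.442). Without array 2 it was 0.09 (adjusted limma p 0.448). Among 10 other measured SOX genes 0 passed the threshold, and the median was -0.13. Sox9, a factor of cushion mesenchyme, was the lowest and the brightest, below 0 on all 4 arrays at -0.37 ± 0.23 (adjusted limma p 0.249). Sox11 was the highest at 0.14 ± 0.24, and Sox4, the next brightest, averaged -0.22 ± 0.45, or -0.42 without array 2.

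Hhex probe 1 was above 0 on all 4 arrays and had the smallest SD of the 11 member probes with a positive mean. Its log2 levels were 8.07, 7.60, 7.62 and 7.85 in mutant pools, against 7.54, 7.21, 7.22 and 7.57 in control pools, and the groups did not overlap. The log2 ratios were 0.53, 0.39, 0.41 and 0.27, a mean of 0.40 ± 0.11 (SD, n = 4, unadjusted limma p 0.00137, adjusted 0.161), with a 95% interval of 0.23 to 0.57. The probe was dim and lay near the offset, which shrinks its ratios and with them its SD. The size of its ratio depended on the background correction, with 0.58 after plain subtraction and 0.65 in the scanner software's own ratio (adjusted limma p 0.204 and 0.227). Hhex probe 2, 3248 bases further along, was brighter, with log2 levels of 12.15, 11.42, 11.58 and 11.93 in mutant pools, against 11.46, 11.56, 11.32 and 11.50 in control pools. Its log2 ratios were 0.69, -0.15, 0.26 and 0.43 (mean 0.31 ± 0.35, adjusted limma p 0.409), so that array 2 alone was below 0. Without array 1 the mean was 0.18, and without array 2 it was 0.46 (adjusted limma p 0.678 and 0.0856). The probes differed by 0.09 ± 0.33 (exact 2-sided sign-flip permutation test, p = 0.875).

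Array 1 gave the highest ratio of the 4 arrays on 6 of 6 tested probes of Sox7, Sox17 and Hhex. Mutant pool 1 had the highest level of the mutant pools on 6 of 6. Sox18, the other SoxF gene, was highest on array 2, at 0.37 against 0.10 on array 1. Tal1 was highest on array 1, at 0.86, and both Nfatc1 probes were lowest there, at -0.06 and -0.41. The 6 probes come from 3 genes grouped with their values known, and the share over all tested probes was not counted. For the endothelial markers, array 1 was the highest for 4 of 20. Markers of foregut endoderm and liver, tissues that also express Sox17 and Hhex, had 4 of 9 measured and 3 at background in every channel. Their log2 summed level was 12.81, 13.05, 11.61 and 9.84 in mutant pools and 10.58, 11.76, 10.45 and 10.04 in control pools. That sum went mostly with Afp, a gene of fetal liver and yolk sac, which had log2 ratios of 2.58, 1.73, 1.35 and -0.63. The median level of the 4 markers was 7.42, 7.23, 7.42 and 7.42 in mutant pools and 7.19, 8.75, 7.04 and 7.22 in control pools, and Cdh1 had -0.62, -2.08, 0.60 and 0.79. The part of endothelial or endodermal cells in the ratios of Sox7, Sox17 and Hhex was not tested.

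The 19 other endothelial transcription factors measured had a median log2 ratio of -0.01, and 0 of 19 passed the threshold. Fli1, an ETS factor, was the highest at 0.34 ± 0.58, with -0.44 on array 2 alone below 0 and a mean of 0.60 without it. Foxc1 was the lowest at -0.28 ± 0.15, below 0 on all 4 arrays (adjusted limma p 0.256). The brightest, the Notch target Hey1 and the ETS factor Elk3, averaged 0.04 ± 0.51 and -0.16 ± 0.13, or 0.12 and -0.10 without array 2. The list median without array 2 was 0.04.

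Tal1 had log2 levels of 13.34, 13.44, 12.96 and 13.53 in mutant pools, against 12.48, 13.19, 13.16 and 13.45 in control pools. The groups overlapped, and control pool 1 was the lowest of all 8 pools. The log2 ratios were 0.86, 0.24, -0.20 and 0.07, a mean of 0.24 ± 0.45 (SD, n = 4, adjusted limma p 0.586), with a 95% interval of -0.18 to 0.67, and without array 1 the mean was 0.04.

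Blood markers ran in the same order of arrays. The 10 measured erythroid markers, of 11 listed, had median log2 ratios of 0.70, 0.37, -0.40 and -0.26 on arrays 1 to 4, and 10 of 10 were highest on array 1. Their log2 summed level was 20.09, 19.98, 19.50 and 19.74 in mutant pools and 18.19, 19.00, 19.47 and 19.48 in control pools. That sum went mostly with embryonic globins, of which Hbb-bh1 and Hbb-y had a mean A of 17.84 and 17.64. On arrays 3 and 4 the sum was higher in the mutant pool, while the list median was below 0. The 7 megakaryocyte and platelet markers had medians of 1.93, 0.26, -0.43 and -0.04, and 7 of 7 were highest on array 1. Their log2 summed level was 16.85, 15.15, 14.71 and 15.31 in mutant pools and 14.73, 15.02, 15.19 and 15.16 in control pools. The measured markers of both lists are those that passed the filter. The part of blood cells in the Tal1 ratio was not tested.

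**Figure D5:**
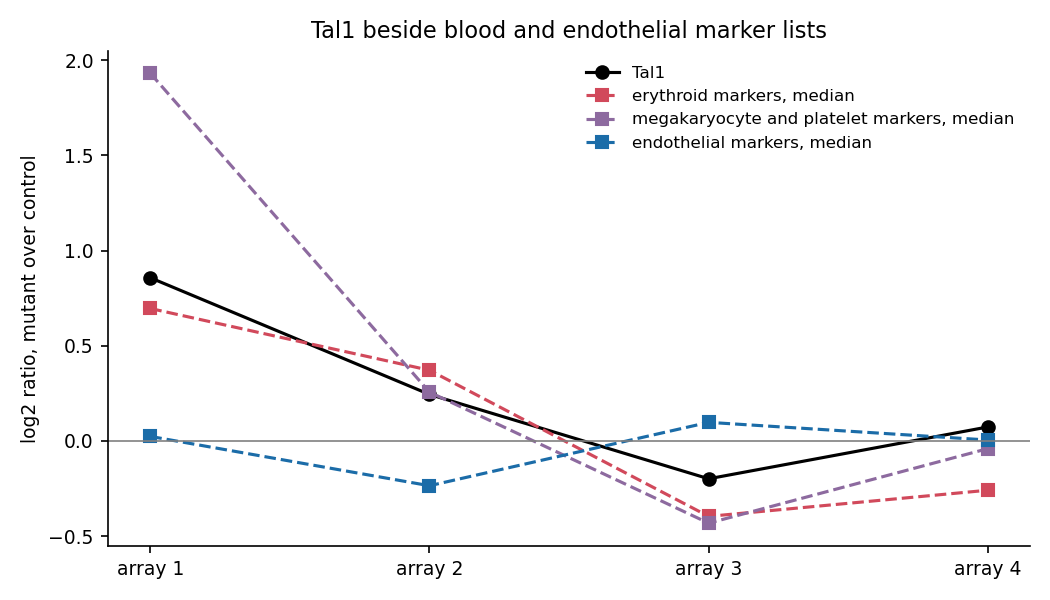
Log2 ratio of mutant over control (vertical axis) of Tal1 and the median log2 ratios of erythroid, megakaryocyte and platelet, and endothelial markers on each array (horizontal axis). Tal1 and both blood lists are highest on array 1 and lowest on array 3, while the endothelial median stays between -0.24 and 0.10.

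Partners of Tal1 in blood and endothelium, such as the Lmo2 and Gata complexes, had 12 of 12 measured, a median log2 ratio of -0.07 and 0 of 12 past the threshold. The stem cell factor receptor gene Kit, a target of the complex, was the highest and was above 0 on all 4 arrays, at 0.79, 0.64, 0.56 and 0.17 (mean 0.54 ± 0.26, adjusted limma p 0.178). The corepressor Cbfa2t3 was the lowest at -0.22 ± 0.60, or -0.47 without array 2. The brightest, Zfpm1, a Gata cofactor, and Tcf12, an E protein, averaged -0.18 ± 0.38 and -0.12 ± 0.17, the second of them -0.04 without array 2.

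Endocardial markers that are no members had 10 of 10 measured, a median log2 ratio of 0.16 (0.29 without array 2) and 0 of 10 past the threshold. The Notch ligand Dll4 was the highest, above 0 on all 4 arrays at 0.36 ± 0.19 (adjusted limma p 0.219), and the endothelin receptor Ednrb the lowest at -0.13 ± 0.32. The brightest, Cgnl1 and Emcn, averaged -0.11 ± 0.19 and 0.10 ± 0.41, the second of them 0.28 without array 2. Endothelial markers had a median of -0.02 over 20 genes, with 0 past the threshold and mean ratios from -0.16 for Ramp2, which also had the highest A, to 0.16 for Icam2. Cd34, the next brightest, averaged -0.03 ± 0.56. Without array 2 these means were -0.09, 0.29 and 0.24, and the list median was 0.03. Their medians on arrays 1 to 4 were 0.02, -0.24, 0.10 and 0.00. Single endothelial markers spread more widely, on array 2 from -0.93 for Robo4 to 0.35 for Rasip1. Klf2 probe 2, with a mean of -0.54, lay below the medians, but 1 probe is not comparable with a median of 20 genes. The part of endothelial cells in its ratio was not tested. The lists of epicardial and myocardial markers had medians of 0.21 and 0.52, or 0.30 and 0.34 without array 2. Cushion, leukocyte and uterine markers had medians of -0.35, -0.37 and -0.29, and without array 2 these were -0.21, -0.02 and 0.08.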

How the data were processed

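The authors deposited scanner output of Agilent Feature Extraction 9.5.1 for 4 2-colour arrays, as the submitters' processing notes and the file headers state. The deposited mean spot intensity of each channel, with its local background, was the starting point. The deposited log10 ratio, red over green, which the deposited series table repeats (within 5e-07, column medians 0), was changed to log2 as an alternative. Fluorescence intensity is not a count, so precision is limited by the 4 arrays.

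Normexp (offset 50) corrected the background and loess normalized within arrays, with control spots at weight 0 and non-uniform spots left out (limma 3.58.1, R 4.3.3). Spots were averaged by probe. The filter, well above background in either channel on 3 or more arrays, kept 28806 of 41174 probes. Their log2 ratios were set against 0 in a 2-sided moderated test (lmFit, eBayes), adjusted by Benjamini-Hochberg, with a threshold of 0.05. Levels are log2 channel values after loess and A-quantile scaling and are compared within a probe. List genes are represented by their brightest probe. All 4 arrays lay on 1 slide read in 1 scan, so no batch could be tested. The fit was tested on simulated data.

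The members and the 18 gene lists, 10 of them cell type markers, were chosen with earlier results of these data known. Every member probe and Tbx3 were named. Marker lists of other cells than endothelium and endocardium are given by medians, sums, ranges and counts, with single genes of the rule where they carry a sum. Of each list, the members past the threshold were named or, with none, the 2 with the highest mean A and those with the lowest and highest mean ratio, and for each Klf2 probe the 3 nearest genes. Alternatives were plain background subtraction, the scanner software's ratio, median centring, a running median, no filter and a stricter one, non-uniform spots kept, array weights, 1 value per gene, and each array left out. Files name probes by older symbols, which were updated through a RefSeq gene table where it held them.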

Additional observations from a re-analysis of the deposited data

Results flagged for a closer look

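Klf4 had a log2 ratio of -1.42 on array 2, while the other 3 arrays lay between 0.01 and 0.03. The gap took up 0.983 of the whole range of the 4 values, which set array 2 apart from the rest by Dixon's criterion. It was the 1 such case among the 14 tested member probes. Chance flags about 1 in 20 groups, and 8.44% of all probes with 4 values were set apart in this way, 5.85% with array 2 as the array apart.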

How the results depend on the processing

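Over all tested probes the count past the threshold was 0 with the settings reported. It was 1 with the scanner software's ratio, with a running median removed, with no filter, with the stricter filter and with the brightest probe per gene. Median centring gave 10817 probes (10065 higher, 752 lower) and 7 member probes, and the median of all tested probes was then 0.21. Relative to that median, Klf2 probe 2 was at -0.25, and Klf4 and Nfatc1 probe 2, at 0.11 and 0.23 before it is taken off, were at -0.11 and 0.02. Array weights gave 1989 probes (1214 higher, 775 lower) and 3 member probes: Klf2 probe 2 (-0.56, adjusted limma p 0.0168), Sox7 probe 2 (0.32, 0.0429) and Hhex probe 1 (0.37, 0.0306). Leaving out each array in turn gave 0 to 207 probes and 0 to 1 member probes, with 207 and 1 where array 2 was left out. Klf2 probe 1 turned below 0 with plain subtraction (-0.0232), the software's ratio (-0.0592), a running median (-0.0156), array weights (-0.62), the mean of both probes (-0.25) and without array 2, with -0.66 to 0.36 over the arrays left out. Over these, Klf4 ran from -0.46 to 0.022 and Nos3 from -0.0899 upward, both turning sign without array 2, and Nfatc1 probe 2 from -0.16 to 0.0036, above 0 without array 1. Nos3 was at -0.0682 with array weights. Of 186 member values under alternatives 12 turned sign in all. Probe differences were recomputed under alternatives chosen after seeing the data, and 1 moved by more than its spread, Sox7 with median centring (-0.36). The causes were not tested. The test of the ratio already pairs the mutant and control pool of each array, so no further paired analysis was run. The counts of pool levels that do not overlap leave this pairing out. Dim probes such as Hhex probe 1 and Sox7 probe 1 lie near the offset, which shrinks their ratios.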
